A study of Homo sapiens with 21 samples.

Results

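CPI-0209 and CPI-1205 are inhibitors of EZH2, the enzyme of Polycomb repressive complex 2 (PRC2), and CPI-1205 is the earlier of the pair. Their RNA-seq profiles were compared directly in tumours grown from HT1376, a human bladder carcinoma cell line. The members were chosen by treatment label alone: 3 CPI-0209 libraries and 3 CPI-1205 libraries, 6 of the 21 libraries in the series. The other groups used here as background were the 3 vehicle libraries. HT1376 cells had been injected under the skin of female CB17 SCID mice, 6 to 8 weeks of age at the start, which lack functional T and B cells but keep other host cells such as macrophages, fibroblasts, vessels and muscle. Each compound was given by mouth once a day at 75 mg/kg, and tumours were taken 1 h after dosing on day 15, so dose and time were matched between the groups. The vehicle tumours carried the same cells in the same host without a compound. The labels do not say which libraries came from separate animals; the spread behind every p-value is therefore that of the libraries and may be in part technical. All groups rest on 1 cell line.

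PRC2 places methyl groups on lysine 27 of histone H3, a mark that keeps genes silent through cell division. EZH2 or its relative EZH1 carries the catalytic site, EED binds the mark and is needed for full activity, and SUZ12 holds the complex together. Known targets in epithelial cells include developmental transcription factors and the HOX clusters, and in many tumours the mark also lies on genes of antigen presentation and of the response to cytokines. An inhibitor of the enzyme leaves the protein in place and lets the mark dilute as cells divide.

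The number of counted reads was 9725690 to 16819167 in the CPI-0209 libraries, 21760406 to 23950075 in the CPI-1205 libraries and 22371908 to 25059827 in the vehicle libraries. The lowest CPI-0209 total belonged to library 3. A level of 3 counts, used here as the limit of detection, amounted to 0.167 to 0.287 CPM (counts scaled by library size to a common total) in CPI-0209 libraries and 0.124 to 0.136 CPM in CPI-1205 libraries. CPI-1205 libraries 2 and 3 carried a resubmission mark in their titles and library 1 did not. On the second principal component of the 6 libraries, which held 10.1% of the variance, library 1 stood apart from libraries 2 and 3. The first component, with 72.6%, separated the compounds. The labelled tumour type was checked by its epithelial markers: the summed level of 10 urothelial carcinoma markers was 9061 to 10720 CPM under CPI-0209 and 11940 to 12990 CPM under CPI-1205, and 1 of the 10 was higher and 4 were lower under CPI-0209.

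Measures used to follow reads of host tissue moved with the comparison. The mean log2 CPM of 50 processed pseudogenes, intronless gene copies chosen because they varied most closely with muscle markers within groups, was 2.46 ± 1.03 (SD, n = 3) under CPI-0209, -0.31 ± 0.65 (SD, n = 3) under CPI-1205 and -0.07 ± 0.46 (SD, n = 3) under vehicle. Skeletal muscle markers, 18 genes, had a median log2 CPM of 4.09, 3.18 and 6.6 in CPI-0209 libraries 1 to 3, and 0.52, 2.19 and -1.32 in CPI-1205 libraries 1 to 3. Both measures were higher in every CPI-0209 library than in any CPI-1205 library, and they were highest in CPI-0209 library 3. A fit that carried the pseudogene measure as a covariate is given below with most lists. The measure separated the groups, so that fit can also remove part of a difference between the compounds.

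The direct comparison tested 21958 genes. Of these, 4377 (19.9%) were higher in CPI-0209 and 3359 (15.3%) were higher in CPI-1205 by edgeR's quasi-likelihood test with Benjamini-Hochberg adjustment at 0.05. The sizes were unequal. Genes higher in CPI-0209 had a median log2 difference of 1.92, and 3346 of them differed by 2-fold or more, whereas genes higher in CPI-1205 had a median of -0.67 and 888 reached 2-fold. In 9437 genes (43%) the 3 libraries of one compound lay wholly above the 3 of the other. The median over all genes tested was -0.05. With the pseudogene covariate the counts were 1909 higher and 1547 lower, and with a term for the resubmission mark added to it 1648 and 1205. Leaving out the libraries with that mark, which keeps CPI-1205 library 1 alone and borrows its spread from the other groups, gave 3188 higher and 2785 lower.

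**Figure D1:**
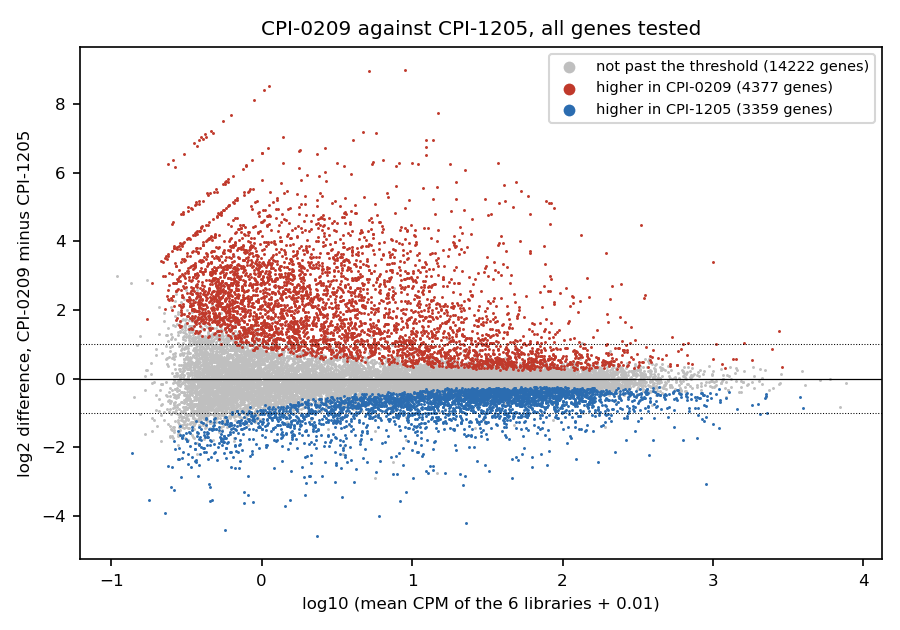
Each point is 1 of the 21958 genes tested. The horizontal axis is the log10 of the mean CPM of the 6 libraries plus 0.01, and the vertical axis is the fitted log2 difference, CPI-0209 minus CPI-1205, with dotted lines at 2-fold. The 4377 red genes reach far above the upper line, and most of the 3359 blue genes lie above the lower line, which 888 of them reach or pass.

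The compounds were also set beside vehicle in the same fit. Under CPI-0209, 4888 genes (22.3%) were higher and 4129 (18.8%) lower than in vehicle, so that 54.2% of calls were higher. Under upper-quartile scaling they were 5858 and 2818, with 67.5% higher, and with the pseudogene covariate 3292 and 3321. Under CPI-1205, 0 genes (0%) were higher and 0 genes (0%) lower, and the smallest adjusted p was 0.279. Before adjustment, 2713 genes (12.4%) had p under 0.05 in the CPI-1205 comparison by edgeR. DESeq2 called 5 higher and 41 lower, and limma-voom called 0 and 0. The fitted CPI-1205 difference was under 2-fold for 95.9% of genes, and for 67.8% its 95% interval lay wholly inside 2-fold. A call count of 0 therefore does not show that CPI-1205 tumours equalled vehicle tumours. Both comparisons share the vehicle libraries, and the values are set side by side only.

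Genes that did not pass the direct test were read by their intervals. Of 14222 such genes, 9687 had a 95% interval inside 2-fold either way, and the other 4535 had an interval that reached past 2-fold and could hold a difference of that size. Over all genes tested, 53.8% of intervals lay inside 2-fold.

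Transcripts of the core PRC2 genes named here differed by less than 2-fold. EZH2, on chromosome 7 from 148807383 to 148884321 in hg38, was at 84.6, 79.5 and 99.1 CPM in CPI-0209 libraries 1 to 3, at 66.4, 77.6 and 74.3 CPM in CPI-1205 libraries 1 to 3, and at 71.4 to 73.6 CPM in vehicle. The compounds' libraries did not overlap, but the nearest were 79.5 and 77.6 CPM. The log2 difference was 0.27 ± 0.10 (SE) with an adjusted p of 0.0443, and the call was lost without CPI-0209 library 3 (adjusted p = 0.242) and without CPI-1205 library 1 (adjusted p = 0.182). EED was higher under CPI-0209 at 54.9 ± 10.6 CPM (SD, n = 3) against 30.3 ± 2.87 CPM (SD, n = 3), a log2 difference of 0.85 ± 0.13 (SE) with an adjusted p of 3.3e-05. SUZ12 was at 48.3 ± 10.5 and 46.3 ± 7.65 CPM (SD, n = 3), and the 95% interval of its log2 difference ran from -0.34 to 0.45. EZH1 was lower under CPI-0209, by a log2 difference of -0.36 ± 0.11 (SE, adjusted p = 0.0137), and its call was lost without CPI-0209 library 3 (adjusted p = 0.073) and without CPI-1205 library 2 (adjusted p = 0.0544). None of the 6 core subunits passed with the pseudogene covariate. The log2 difference by edgeR was then 0.0019 for EZH2 (adjusted p = 0.997), 0.41 for EED (adjusted p = 0.0926) and -0.40 for EZH1 (adjusted p = 0.117). With the resubmission mark added to that covariate, EED passed at 0.58 (adjusted p = 0.0406) and EZH2 was at 0.11 (adjusted p = 0.715).

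Among partners of PRC2, 3 of 9 were higher and 2 were lower under CPI-0209, a small list to set beside the 19.9% and 15.3% of all genes. EZHIP, a protein that inhibits PRC2 and is mainly made in the germ line, was at 10.7 ± 1.65 CPM (SD, n = 3) against 2.54 ± 0.99 CPM (SD, n = 3). EPOP, a partner found in one form of the complex, was at 55.2 ± 8.20 and 29.1 ± 6.51 CPM (SD, n = 3). AEBP2, a partner of the other form, was lower, by a log2 difference of -0.71 ± 0.15 (SE, adjusted p = 0.000644). Of 25 subunits of PRC1, the Polycomb complex that acts beside PRC2, 8 were higher and 2 lower. CBX2, which reads the methyl mark, was at 26.0 ± 4.17 CPM against 6.84 ± 2.39 CPM (SD, n = 3). The PRC1 member SCML2 had a log2 difference of 2.11 ± 0.28 (SE) and BCORL1 one of 1.96 ± 0.22 (SE). The covariate fit called 2 partners higher and 1 lower, and 5 PRC1 subunits higher and 3 lower.

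MHC class II genes, which present peptides to helper T cells, had the largest median difference of the biological lists. Of 17 tested, 16 were higher under CPI-0209 and 0 lower, with a median log2 difference of 4.84 against -0.05 over all genes. CIITA, the transcriptional coactivator that class II genes depend on, was at 48.7, 58.5 and 54.4 CPM in CPI-0209 libraries 1 to 3 and at 5.72, 7.06 and 6.04 CPM in CPI-1205 libraries 1 to 3. Vehicle libraries held 4.80 to 5.88 CPM, so CPI-1205 and vehicle overlapped while every CPI-0209 library was higher. HLA-DPB1, a chain of the peptide-binding HLA-DP molecule, was at 29.5, 52.4 and 32.1 CPM under CPI-0209, at 1.00, 1.44 and 0.54 CPM under CPI-1205 and at 0.56 to 1.26 CPM in vehicle. Its log2 difference was 5.24 ± 0.38 (SE) with an adjusted p of 6.22e-09. HLA-DPA1, its partner chain, was at 61.8 ± 19.4 CPM against 2.23 ± 1.21 CPM (SD, n = 3). HLA-DOA, part of a molecule that tunes peptide loading, was at 13.0, 21.3 and 14.4 CPM against 0.05, 0.41 and 0.13 CPM, the first of which is under 3 counts. HLA-DMB, which helps exchange peptides, had a log2 difference of 4.84 ± 0.44 (SE). In the covariate fit 15 of the 17 were higher with a median of 4.16, and without CPI-0209 library 3 the count was 16.

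Promoter stretches of 4 genes named in the text are shown as examples, picked by hand because they hold short motifs. They were read from RefSeq promoter windows on GRCh38.p14, 250 bases before to 50 after a start, of which 13615 matched tested genes by symbol. Each is given 5′ to 3′ on the strand of its gene, ends before the first base in an exon of any annotated transcript, and has the motif in capitals. Introns were not checked, and the HLA-DPB1 stretch lies within the HLA-DPA1 gene on the other strand. In the class II stretches the capitals mark CCAAT or its reverse complement, and in the MMP10 and FLG stretches they mark TGANTCA.
HLA-DPB1, chr6:33075840-33075925, plus strand: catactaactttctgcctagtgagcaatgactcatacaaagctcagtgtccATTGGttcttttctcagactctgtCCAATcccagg
HLA-DOA, chr6:33009613-33009741, minus strand: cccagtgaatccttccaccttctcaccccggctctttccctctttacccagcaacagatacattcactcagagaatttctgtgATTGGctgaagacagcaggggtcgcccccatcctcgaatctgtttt
MMP10, chr11:102780629-102780778, minus strand: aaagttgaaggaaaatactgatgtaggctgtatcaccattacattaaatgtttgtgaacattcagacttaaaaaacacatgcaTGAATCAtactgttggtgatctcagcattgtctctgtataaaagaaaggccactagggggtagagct
FLG, chr1:152325240-152325389, minus strand: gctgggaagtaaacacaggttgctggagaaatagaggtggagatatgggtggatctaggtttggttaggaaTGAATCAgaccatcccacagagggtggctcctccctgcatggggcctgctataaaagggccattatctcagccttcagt

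CCAAT on either strand stood in 13 of 14 class II windows (92.9%), against 36.3% of all tested genes with a window. It was also common in other lists, at 81.8% of HOX, 73.6% of proliferation and 68.0% of lipid synthesis windows. TGANTCA, the core recognised by AP-1 factors, stood in 29.4% of 51 basal and squamous windows against 5.47% of all. It was present before MMP10, which was higher under CPI-0209, and before FLG, which was lower. The HLA-DPB1 stretch holds it too, left in lower case, and the list of MMP10 had it in 14.3% of 21 windows. CpG dinucleotides, which are dense in promoters that PRC2 commonly occupies, had a median of 24 per window over all tested genes. The median was 18 in genes at least 2-fold higher in CPI-0209 and 14 in genes at least 2-fold higher in CPI-1205, while genes that were not called had 25. Class II windows had a median of 3 and HOX windows, of which 11 matched, a median of 27. These are counts of letters in a window and show neither binding nor cause.

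MHC class I genes, which present peptides to killer T cells, differed by less. Of 22 tested, 14 were higher under CPI-0209 and 0 lower, with a median log2 difference of 0.64. TAP1, which pumps peptides into the endoplasmic reticulum, was at 231, 273 and 235 CPM against 102, 100 and 77.2 CPM under CPI-1205 and 85.9 to 94.2 CPM in vehicle. PSMB9, a subunit of the immunoproteasome, was at 88.4 ± 14.1 CPM against 32.1 ± 1.52 CPM (SD, n = 3). NLRC5, the coactivator of class I genes, had a log2 difference of 1.65 ± 0.19 (SE). In the interferon response list, 38 of 66 genes were higher and 1 lower, with a median of 0.56. IDO1, which degrades tryptophan and is induced by interferon-gamma, was at 35.6, 54.2 and 42.7 CPM against 0.95, 0.54 and 0.45 CPM. IRF1, an interferon-induced transcription factor, was at 133 ± 13.7 CPM against 52.2 ± 5.75 CPM (SD, n = 3), and the adhesion molecule ICAM1 had a log2 difference of 2.80 ± 0.25 (SE). The class I calls were 12 of 22 with the pseudogene covariate. The interferon calls fell to 17 of 66 with it, and to 18 of 66 when the libraries with a resubmission mark were left out.

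Cytokines and chemokines were the second of the immune groups by median. Of 48 tested (56 listed), 37 were higher under CPI-0209 and 3 lower, with a median of 2.86. CXCL1, which draws neutrophils, was at 36.1, 50.9 and 42.5 CPM under CPI-0209, at 1.5, 1.24 and 1.57 CPM under CPI-1205 and at 0.59 to 1.22 CPM in vehicle. Its log2 difference was 4.91 ± 0.33 (SE, adjusted p = 4.42e-09). LIF, a cytokine of the IL-6 family, was at 57.4, 78.6 and 74.4 CPM against 3.27, 5.32 and 5.55 CPM. IL11, of the same family, was at 14.9 ± 3.87 CPM against 2.03 ± 0.46 CPM (SD, n = 3). CSF1, the growth factor of macrophages, was at 64.0 ± 8.90 CPM against 7.17 ± 0.74 CPM (SD, n = 3). The lowest CPI-0209 library was above the highest CPI-1205 library for each of these 4 genes. They were picked by smallest p in this comparison, and 43% of all genes tested did not overlap. The pseudogene covariate left 32 of 48 higher.

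In the NF-kB list, 15 of 22 genes were higher and 1 lower, with a median of 0.68. SOD2, a mitochondrial enzyme that NF-kB induces, was at 597 ± 69.0 CPM against 111 ± 25.8 CPM (SD, n = 3). CD83, a surface protein of activated antigen-presenting cells, was at 19.1 ± 3.55 CPM against 1.92 ± 0.48 CPM (SD, n = 3). In the covariate fit 13 were higher and 1 lower. Of 14 complement genes tested, of 20 listed, 3 were higher and 1 lower in both fits, which is near the 19.9% over all genes for the higher calls. C1S, a protease of the first complement component, had a log2 difference of 2.99 ± 0.25 (SE).

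**Figure D2:**
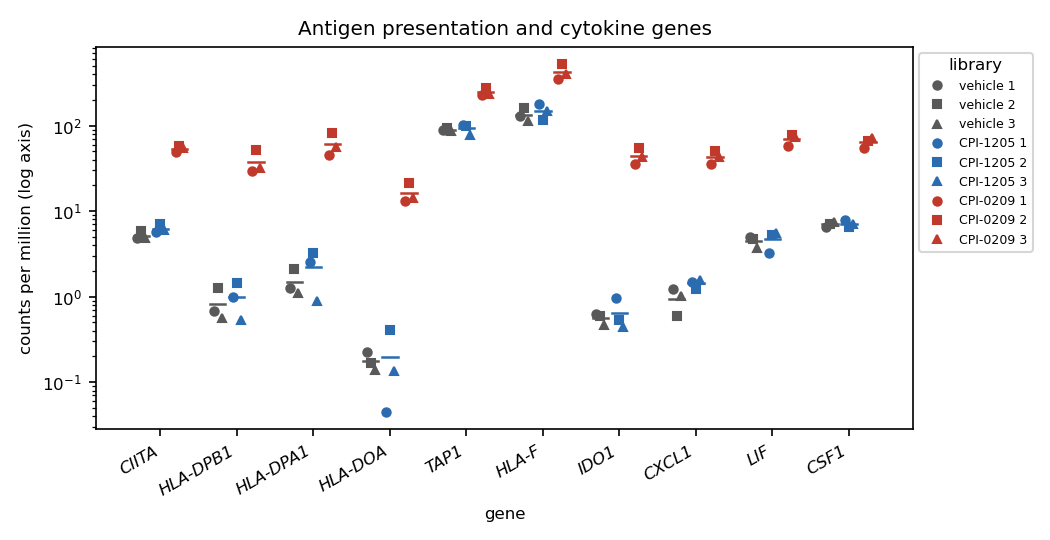
CPM on a log axis for 10 genes of antigen presentation and cytokine signalling. Each symbol is 1 library, its shape gives the library number, and short lines are means of 3 libraries. The red CPI-0209 symbols are above all CPI-1205 and vehicle symbols for each gene, and the blue and grey symbols lie near each other.

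HOX genes, the clustered transcription factors that set position along the body axis, were higher under CPI-0209 where they could be tested. Of 39 listed, 26 passed the filter on low counts, and 24 of these were higher and 0 lower, with a median log2 difference of 3.33. A silent gene can pass that filter through the group in which it is high, so the 13 left out are not counted either way. Counts over the tested genes can lean towards that group. The same limit applies to the other lists, the cytokine list above included. HOXB7 was at 3.62, 8.28 and 9.56 CPM in CPI-0209 libraries 1 to 3, at 0.45, 0.33 and 0.31 CPM in CPI-1205 libraries 1 to 3 and at 0.14 to 0.50 CPM in vehicle. CPI-1205 and vehicle libraries overlapped and every CPI-0209 library was higher. HOXC11 had 41 counts over the CPI-0209 libraries and 2 over the CPI-1205 libraries, a ratio of 30.7 with a counting interval of 7.97 to 262. In the covariate fit 2 of the 26 were called and the median was 0.88. With the libraries that carry a resubmission mark left out, 13 were called.

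Of 171 other developmental transcription factors listed, 105 passed the filter on low counts, to which the limit given for HOX genes applies. Of these, 64 were higher under CPI-0209 and 11 lower, with a median of 1.86. TWIST1, a regulator of mesoderm and of epithelial plasticity, was at 29.1, 47.2 and 50.2 CPM against 4.09, 7.06 and 5.01 CPM under CPI-1205 and 4.11 to 5.17 CPM in vehicle. Its log2 difference was 2.96 ± 0.22 (SE, adjusted p = 6.27e-09). FOXA2, an endoderm factor, was at 12.6, 13.0 and 14.1 CPM against 1.32, 1.65 and 1.61 CPM. WT1, a factor of kidney and gonad development, had 231 counts against 3, a ratio of 115 with a counting interval of 39 to 563. RUNX3 had a log2 difference of 3.79 ± 0.36 (SE). Under the pseudogene covariate the list had 24 higher and 9 lower with a median of 0.70.

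Ligands and their inhibitors in developmental signalling followed, with 35 of 60 tested (78 listed) higher, 8 lower and a median of 1.49. NTN1, the guidance ligand netrin-1, was at 13.9, 27.6 and 23.6 CPM under CPI-0209 and at 0.23, 0.50 and 0.09 CPM under CPI-1205, a log2 difference of 6.27 ± 0.56 (SE, adjusted p = 6.62e-08). SEMA3A, another guidance ligand, was at 17.2 ± 0.87 CPM against 3.45 ± 0.22 CPM (SD, n = 3). INHBA, the subunit of activin A, was at 148, 199 and 202 CPM against 25.02, 30.7 and 32.2 CPM. FST, which binds and blocks activin, was at 178, 207 and 208 CPM against 39.0, 33.8 and 42.4 CPM. The ligand and its inhibitor were thus both higher in all 3 CPI-0209 libraries. The covariate fit had 17 of 60 higher and 4 lower.

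Genes that change when epithelial cells take on mesenchymal features, with their proteases, had 21 of 31 higher and 5 lower, and a median of 1.63. MMP10, which cleaves matrix proteins, had the smallest p of the list. It was at 78.1, 79.1 and 69.0 CPM under CPI-0209, at 4.72, 5.32 and 4.39 CPM under CPI-1205 and at 1.68 to 3.32 CPM in vehicle. Its log2 difference between compounds was 3.97 ± 0.21 (SE, adjusted p = 2.33e-10). MMP10 was higher in each CPI-1205 library than in any vehicle library, with a log2 difference of 0.92 and an adjusted p of 0.279 that did not pass. The collagenase MMP1 was at 253, 283 and 219 CPM against 17.9, 13.8 and 10.02 CPM. MMP13, also a collagenase, was at 56.7 ± 1.57 CPM against 5.78 ± 1.07 CPM (SD, n = 3). With the pseudogene covariate the list had 10 higher and 6 lower.

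Germ line genes that tumours can switch on differed in both directions. Of 52 cancer-testis genes tested (63 listed), 23 were higher under CPI-0209 and 7 lower, with a median of 0.38. Over all genes tested the shares were 19.9% and 15.3%. PRAME was at 14.9, 28.3 and 15.7 CPM against 1.09, 1.65 and 1.16 CPM under CPI-1205 and 0.47 to 0.68 CPM in vehicle. MAGEA10 was at 32.7 ± 2.08 CPM against 9.43 ± 1.61 CPM (SD, n = 3). Of 42 neuronal genes tested (55 listed), 24 were higher and 1 lower. The limit of the filter on low counts given for HOX genes applies to both lists. UCHL1, a ubiquitin hydrolase abundant in neurons, was at 16.0 ± 4.52 CPM against 1.05 ± 0.20 CPM (SD, n = 3), and NEFM, a neurofilament, had a log2 difference of 3.99 ± 0.39 (SE). In the covariate fit the cancer-testis list had 17 higher and 2 lower, and the neuronal list 11 and 0.

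**Figure D3:**
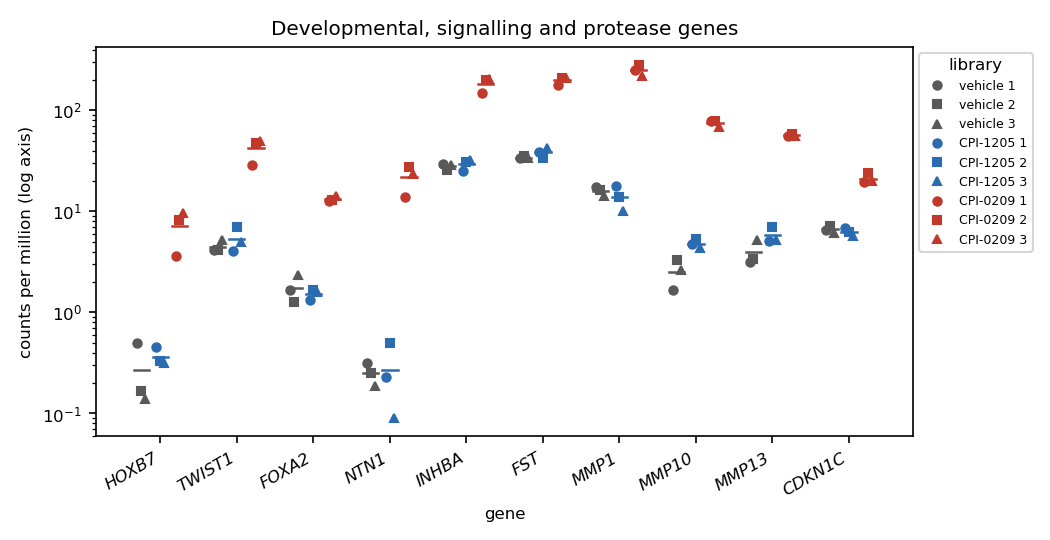
CPM on a log axis for 10 developmental, signalling, protease and cell cycle genes. Symbols and lines are as for antigen presentation and cytokine genes: 1 symbol per library, with means of 3. All CPI-0209 libraries are above all CPI-1205 libraries for each gene, and HOXB7 and NTN1 are near or under 0.5 CPM in CPI-1205 and vehicle.

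The 10 largest differences in each direction were named by rule. TFF1, a secreted trefoil peptide of mucosal surfaces on chromosome 21 from 42362282 to 42366594, was at 10.3, 22.9 and 20.7 CPM under CPI-0209. It had 800 counts there and 2 over the CPI-1205 libraries, a ratio of 599 with a counting interval of 165 to 4960, and 0 in vehicle. HLA-DQB2, PPBP and FOXN4 had 0 counts in all CPI-1205 libraries. Against a limit of 3 counts over the group, they were at least 51.9-fold, 46.9-fold and 34.9-fold higher under CPI-0209. GGT5, an enzyme that acts on leukotriene C4, was at 29.6 ± 13.5 CPM against 0.13 ± 0.12 CPM (SD, n = 3). CCL4 and CCL4L2 had a log2 difference of 7.18 each, and because they are near-identical copies the split of reads between them is uncertain. SENCR, OR2I1P and AC007991.4 complete the 10. SENCR and AC007991.4 are antisense genes, and AC007991.4 lies within IDO1, which was itself higher under CPI-0209. If strand was not used, their reads cannot be told from those of the gene on the other strand.

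Among the genes higher in CPI-1205, LAMB4, a laminin chain, was at 48.5, 41.6 and 39.0 CPM in CPI-1205 libraries 1 to 3, at 48.0 to 62.2 CPM in vehicle and at 3.40, 0.63 and 3.15 CPM under CPI-0209. Its log2 difference was -4.20 ± 0.43 (SE, adjusted p = 5.9e-07). ARG1, which cleaves arginine, had 73 counts under CPI-1205 and 2 under CPI-0209, a ratio of 0.041 with a counting interval of 0.00488 to 0.154. VIT was at 11.4 ± 4.90 CPM against 0.77 ± 0.50 CPM (SD, n = 3), and PLA2G3, a secreted phospholipase, at 6.28 ± 1.27 CPM against 0.51 ± 0.56 CPM (SD, n = 3). LINC03013, SLURP1, GPR15LG and FAM181A-AS1 were also among the 10, and the last is an antisense gene whose reads cannot be told from those of its partner if strand was not used. IGHA1 and LCE6A rested on CPI-1205 library 1: without it their adjusted p-values were 0.0906 and 0.406. LCE6A also lost its call without any 1 CPI-0209 library, with adjusted p-values of 0.0586 to 0.0826.

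Genes of stratified squamous epithelium held the most lower calls by number, and lipid synthesis genes, described below, by share of the list. Of 72 basal and squamous genes, 38 were lower and 5 higher, with a median log2 difference of -0.81. KRT1, a keratin of cells that are leaving the basal layer, was at 220, 164 and 194 CPM under CPI-0209, at 2022, 1661 and 1163 CPM under CPI-1205 and at 2116 to 2908 CPM in vehicle. Its log2 difference was -3.07 ± 0.35 (SE, adjusted p = 1.42e-06). FLG, the precursor of filaggrin in the cornified layer, was at 9.76, 7.18 and 9.08 CPM against 83.7, 44.3 and 39.4 CPM. CALML5, a calcium-binding protein of differentiating keratinocytes, was at 18.2 ± 0.85 CPM against 108 ± 3.81 CPM (SD, n = 3), and 155 to 172 CPM in vehicle. KRT4, a keratin of mucosal epithelium, had a log2 difference of -2.33 ± 0.23 (SE). The CPI-0209 libraries were lower than all CPI-1205 libraries for each of these. The genes were picked by small p in this comparison, and 43% of all genes tested did not overlap in 1 direction or the other. Of 7 skin keratinocyte and hair markers 3 were lower, KRT1, KRT10 and FLG, which stand in both lists, and the summed level of the 7 was 493 to 553 CPM under CPI-0209, 1959 to 3239 CPM under CPI-1205 and 3713 to 5054 CPM in vehicle. In bulk tumours, fewer cells of a type and less RNA per cell cannot be told apart. In the covariate fit 23 of the 72 were lower and 3 higher, with a median of -0.82.

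The luminal urothelial list went both ways, with 13 of 36 higher and 11 lower, beside 19.9% and 15.3% of all genes tested. FGFR3, a receptor often altered in bladder carcinoma, was at 56.4, 42.3 and 60.9 CPM under CPI-0209 against 128, 193 and 123 CPM. BAMBI, a pseudoreceptor that dampens TGF-beta signalling, was at 6.86 ± 1.89 CPM against 0.62 ± 0.22 CPM (SD, n = 3). The covariate fit had 9 higher and 4 lower.

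Lipid synthesis genes that passed the test were lower. Of 34 cholesterol and fatty acid synthesis genes, 24 were lower under CPI-0209 and 0 higher, with a median of -0.72. SCD, which places the first double bond in fatty acids, was at 227, 145 and 168 CPM against 604, 742 and 508 CPM under CPI-1205 and 694 to 841 CPM in vehicle. The desaturase FADS2 was at 102 ± 11.8 CPM against 212 ± 24.7 CPM (SD, n = 3), a log2 difference of -1.05 ± 0.15 (SE). The lower calls numbered 13 with the pseudogene covariate, and 7 when a term for the resubmission mark was added to it.

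Of 46 hypoxia and glycolysis genes, 23 were lower under CPI-0209 and 4 higher, with a median of -0.46. PFKFB4, a regulator of glycolysis, was at 16.5 ± 1.68 CPM against 39.3 ± 2.80 CPM (SD, n = 3). CA12, a carbonic anhydrase, went the other way, with a log2 difference of 2.19 ± 0.24 (SE). Of 40 genes of foreign compound handling and the NRF2 response, 14 were lower and 5 higher, beside 15.3% and 19.9% of all genes tested. SLC7A11, the cystine importer, was at 22.1, 12.6 and 15.6 CPM against 72.6, 76.4 and 96.2 CPM. The covariate fit had 3 higher and 15 lower in the hypoxia and glycolysis list, and 2 higher and 5 lower in the NRF2 list. The efflux pump ABCG2 was at 48.8 ± 3.88 CPM against 107 ± 17.3 CPM (SD, n = 3).

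**Figure D4:**
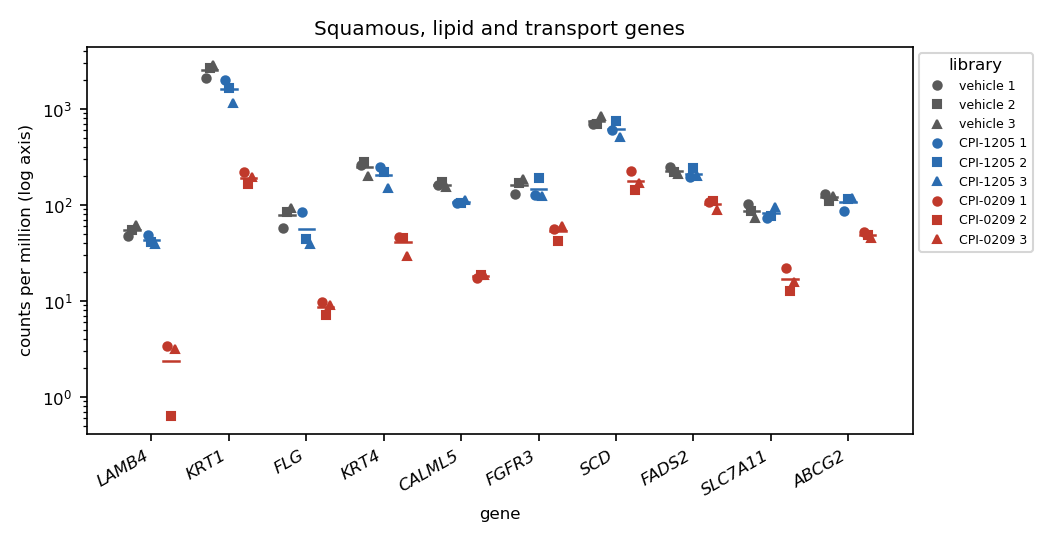
CPM on a log axis for 10 squamous, lipid and transport genes, with 1 symbol per library and lines at the means of 3. All CPI-0209 libraries are below all CPI-1205 libraries for each gene, while CPI-1205 and vehicle symbols lie nearer each other. They do not always overlap: for KRT1 and CALML5, for example, every CPI-1205 library is below every vehicle library.

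Proliferation genes differed little. Of 66 tested, 51 were not called, and 64 of the 66 intervals lay inside 2-fold. Of the 15 called, 13 were lower under CPI-0209 and 2 higher, with a median over the list of -0.09. PCNA, the sliding clamp of DNA replication, was at 210 ± 5.03 CPM against 272 ± 10.5 CPM (SD, n = 3). PTTG1, or securin, had a log2 difference of -0.72 ± 0.14 (SE). The covariate fit called 1 of the 66. Among 11 inhibitors of cyclin-dependent kinases and D cyclins, 4 were higher and 1 lower, and 3 and 0 in the covariate fit. Over all genes tested, 19.9% were higher and 15.3% lower in the reported fit. CDKN1C, the inhibitor p57, was at 21.1 ± 2.58 CPM against 6.28 ± 0.54 CPM (SD, n = 3), and CCND1, cyclin D1, at 155 ± 9.60 CPM against 69.2 ± 26.3 CPM (SD, n = 3).

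The stress lists had calls in both directions, as did all genes tested, with 19.9% higher and 15.3% lower under CPI-0209. Of 24 genes of the unfolded protein and amino acid response, 8 were higher and 1 lower. The list of immediate early and heat shock genes had 6 of 33 higher and 6 lower, and that of p53 targets 6 of 25 and 6. Of 21 retinoid genes, 7 were higher and 7 lower. In the covariate fit the counts higher and lower were 3 and 0 for the unfolded protein list, 1 and 5 for immediate early genes, 3 and 3 for p53 targets and 2 and 3 for retinoid genes. GDF15, a secreted stress factor, was at 396 ± 104 CPM against 127 ± 37.2 CPM (SD, n = 3). RDH10, an enzyme that makes retinaldehyde, had a log2 difference of -1.25 ± 0.12 (SE).

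Genes that mark host cell types were followed in the same way. The only build named is the human build hg38. The counts can hold tumour-cell transcripts and mouse reads that match human genes, which cannot be told apart here. The sums below are therefore not a measure of host cell content. Of 18 skeletal muscle markers, 15 were higher under CPI-0209 and 2 lower, with a median of 4.82. Their summed level was 592, 447 and 2261 CPM in CPI-0209 libraries 1 to 3 against 640, 774 and 779 CPM in CPI-1205 libraries 1 to 3, so that 2 of the 3 CPI-0209 sums lay below every CPI-1205 sum. TNNT3 and TNNI2, subunits of fast muscle troponin, were the 2 lower genes, at 205 ± 13.6 against 459 ± 18.6 CPM and 119 ± 19.6 against 236 ± 61.5 CPM (SD, n = 3). Without CPI-0209 library 3, 4 were higher and 2 lower. Of 19 fibroblast and matrix markers, 13 were higher and 3 lower, but the summed levels overlapped, at 2697, 3262 and 5709 CPM against 4226, 2668 and 2258 CPM, with 3687 to 5770 CPM in vehicle. COL6A1, a collagen chain, was at 47.4, 115 and 79.2 CPM against 2.36, 1.44 and 0.98 CPM. Of 13 endothelial markers, 9 were higher and 0 lower, and their summed level was 122 to 158 CPM under CPI-0209, 36.7 to 65.0 CPM under CPI-1205 and 44.2 to 49.2 CPM in vehicle. PECAM1, an adhesion molecule of endothelium and leukocytes, was at 25.4, 32.5 and 24.4 CPM against 1.77, 3.09 and 2.33 CPM. Of 18 macrophage and granulocyte markers, 11 were higher and 2 lower, with summed levels of 3997 to 4423 CPM against 3265 to 4561 CPM, which overlap. Their median log2 CPM did not overlap, at 1.935, 2.438 and 2.655 against 1.181, 0.958 and 0.341. S100A8 and S100A9 of this list also stand in the basal and squamous list. Of 7 lymphocyte markers tested (16 listed), 6 were higher, with sums of 9.25 to 10.9 CPM against 3.51 to 5.06 CPM. The limit of the filter on low counts given for HOX genes applies to this and the other host marker lists. Of the smaller lists, pericyte and smooth muscle markers had 4 of 10 higher and 1 lower, adipocyte markers 2 of 5 and 1, nerve and glia markers 1 of 4 and 1, and red blood cell markers 0 of 2. Over all genes tested the shares were 19.9% higher and 15.3% lower, and these lists are too small to read against them. With the pseudogene covariate the muscle, fibroblast and endothelial lists had 0, 6 and 3 higher, and medians of -0.91, 0.03 and -0.12. The pseudogenes were chosen by their correlation with these muscle markers, so the fall of the muscle list was built into that fit. Of the defining markers, KRT35 of hair and SOX10 of glia had 0 counts in all 6 libraries. The part of host reads in the gene groups above was not tested.

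CPI-1205 was set beside CPI-0209 for each list against vehicle. Because 0% of all genes tested were called for CPI-1205 against vehicle, none of the 37 lists could hold a called gene. The list medians of CPI-1205 against vehicle were 0.39 for MHC class II, 0.11 for cytokines, -0.02 for HOX genes, -0.24 for basal and squamous genes and -0.12 for lipid synthesis. For CPI-0209 against vehicle the same lists had medians of 5.49, 3.08, 3.01, -0.98 and -0.84. MHC class II had 16 genes higher than vehicle under CPI-0209, and lipid synthesis had 25 lower.

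**Figure D5:**
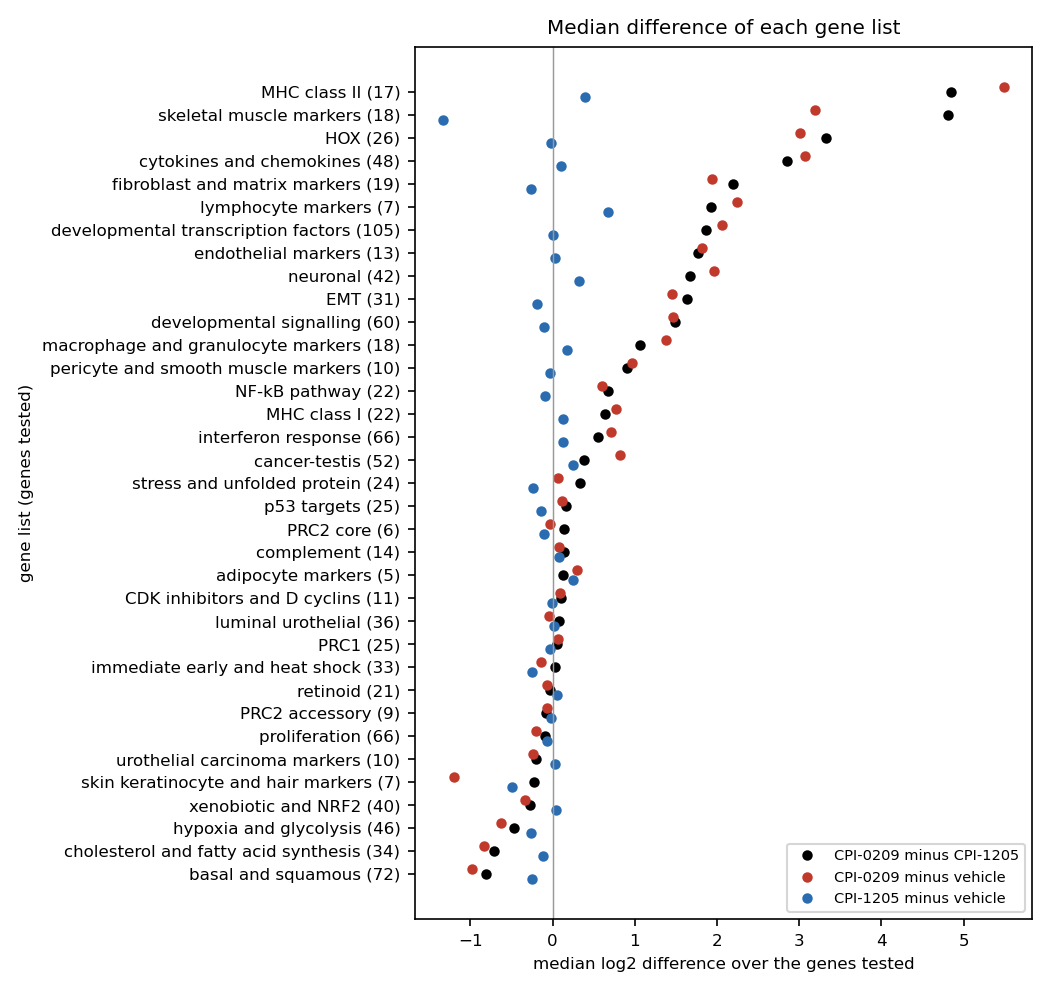
Median log2 difference over the tested genes of each list, for lists with at least 5 genes tested. Black points are CPI-0209 minus CPI-1205, red points CPI-0209 minus vehicle and blue points CPI-1205 minus vehicle. Blue points stay within 1 unit of 0 except for skeletal muscle markers at -1.33, and black points lie near red ones for most lists.

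The gene types of the calls were uneven. Of 15497 protein-coding genes tested, 3272 (21.1%) were higher in CPI-0209 and 2684 (17.3%) higher in CPI-1205. Of 1182 processed pseudogenes, 414 (35.0%) were higher in CPI-0209 and 44 (3.72%) higher in CPI-1205. For 1440 long intergenic RNAs the counts were 236 and 174. For 1721 antisense genes they were 156 and 186.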

How the data were processed

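Total RNA of HT1376 xenografts was sequenced from TruSeq libraries as paired reads, per the labels' protocols. Tools listed in the submitters' processing notes are STAR 2.7.3a and RSEM 1.3.1, with build hg38; which tool counted, and whether strand was used, is not given in the sources used here. The deposited values are raw counts per gene, with a gene length that was not used. From them, edgeR 4.0.16 (R 4.3.3) was run on all 21 libraries with 1 term per group, genes kept by filterByExpr, TMM scaling and robust quasi-likelihood tests (two-sided), with Benjamini-Hochberg adjustment over all genes tested and a threshold of 0.05. CPM are counts scaled by the TMM-adjusted library total, as edgeR computes them, and log2 CPM use a prior count of 2. SE is the fitted difference divided by the square root of F. Limits of 3 counts, and exact ratio intervals at 95%, cover counting error only. The pseudogene covariate is the mean log2 CPM of the 50 processed pseudogenes, of 1182 tested, most correlated with the muscle marker median within groups over the 21 libraries. DESeq2 1.42.0 and limma 3.58.1 were alternatives.

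Members of the comparison were set by treatment label. That choice, the gene lists and the alternatives were made with earlier results of these data known. List counts and medians therefore describe these data and are not independent support. Named genes are EZH2, EZH1, EED and SUZ12; the 10 largest differences each way among called genes with no overlap of libraries whose higher group averaged 1 CPM or more; and up to 4 genes with the smallest p in each list. The fit was tested on simulated data. No 2 libraries of a group agreed within counting noise.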

Additional observations from a re-analysis of the deposited data

How the results depend on the processing

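No called gene named in the text changed direction in any alternative, while SUZ12, which did not pass, took values on both sides of 0. List medians near 0 also changed sign, and those of skeletal muscle and endothelial markers fell below 0 with the pseudogene covariate. In CPI-0209 against vehicle, higher calls outnumbered lower ones in all but 1 setting: the processed pseudogene covariate gave 3292 and 3321. For CPI-0209 against CPI-1205, genes higher in CPI-0209 fell to 1909 with the processed pseudogene covariate. Genes lower fell to 1547 with it, to 722 when a difference of more than 1.5-fold was tested (glmTreat) and to 1677 with only the 2 groups in the fit, which has fewer libraries to estimate the spread. After seeing the data, a fit with both the resubmission mark and the pseudogene covariate was added. It gave the lowest count of higher genes, 1648 higher with 1205 lower, of which 1452 and 1053 were called in the reported fit too, and 42 of 157 called named genes lost their call. The cause of these falls was not tested. A second addition, a term for the mark carried by count columns, gave 3524 and 2804. Upper-quartile scaling gave 4821 and 2566. Leaving out 1 library gave 3727 to 4613 higher and 2566 to 3402 lower. Genes lower under CPI-0209 than vehicle fell to 1015 with glmTreat, and leaving out 1 library gave 4229 to 5088 higher and 3014 to 3747 lower. For CPI-1205 against vehicle, the counts higher and lower were 124 and 234 with no filter on low counts, 5 and 41 by DESeq2, 13 and 17 with a term for the mark, 57 and 169 with marked libraries left out, 23 and 25 with the mark and pseudogene covariate, and 0 to 1 and 0 to 3 when 1 library was left out. The replicate block gave 4249 higher and 3129 lower. The numbers do not pair the libraries, since same-numbered libraries of the 2 compounds had correlations of -0.175, -0.124 and -0.137. Depth limits low genes: thinning all libraries to the smallest total, 9725690 counts, gave 3479 higher and 2406 lower.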
